A study of Mus musculus with 8 samples.

Results

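The genes described here are 9 regulators of naive and memory T cells: the transcription factors Klf2, Lef1, Foxo1, Bach2 and Satb1, the inhibitors Id2 and Id3, and the surface receptors S1pr1 and Slamf6. They were chosen by name. Each had 1 probeset that the platform annotation pairs with exactly 1 symbol, so all 9 were measured, among 19938 genes in all. RNA of cultured mouse CD4 T cells was measured on 8 Affymetrix arrays, with 2 cultures named biological replicates in each of 4 groups: Tet2-/- Th17, wild-type Th17, Tet2-/- Th1 and wild-type Th1 cells. The product of Tet2 converts 5-methylcytosine to its hydroxymethyl form. All cultures began from naive cells of C57BL/6 spleen and lymph node, sorted by surface markers that include CD4 (positive), CD25 (negative) and CD44 (low), and stimulated through CD3 and CD28. For Th17 cells the medium held TGF-β1 at 0.5 ng/ml and IL-6 at 10 ng/ml, with interferon-γ and IL-4 both blocked by antibody. For Th1 cells it held IL-12 at 10 ng/ml and IL-2 at 30 U/ml, with IL-4 blocked. The labels give neither the Tet2 allele nor the age of the mice, and do not say if the optional IL-1β and IL-23 were present in these Th17 cultures, or whether the 2 cultures of a group came from separate mice. P values therefore measure only the spread between these cultures. In the RefSeq annotation of GRCm38.p6, S1pr1 lies at chr3:115710433-115715055, Lef1 at chr3:131110297-131224357 and Foxo1 at chr3:52268337-52350109. Bach2 lies at chr4:32238413-32586109, Id3 at chr4:136143822-136145392 and Id2 at chr12:25093799-25096092. Klf2 lies at chr8:72319062-72321654, Satb1 at chr17:51736187-51833290 and Slamf6 at chr1:171917458-171948958. The values are per gene, not per exon.

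Naive and central memory T cells are kept in circulation and out of the effector state by a small group of factors. Foxo1, which is held in the cytoplasm by Akt after antigen receptor or cytokine signalling, activates Klf2, and Klf2 in turn activates S1pr1, the sphingosine 1-phosphate receptor that lets T cells leave lymphoid organs. Lef1 and its relative Tcf7 bind DNA at Wnt-responsive genes and preserve the naive program, Bach2 represses effector genes, and Satb1 organises chromatin in developing and naive T cells. Id2 and Id3 lack a DNA-binding domain and block E proteins, with Id3 associated with memory precursors and Id2 with effector cells in mouse CD8 T cells. Slamf6 is a self-binding receptor of the SLAM family that marks stem-like T cells.

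The sequence just before the transcription start is shown for 4 members because CpG, the dinucleotide that carries most DNA methylation, differs widely among them. Shown are Slamf6, Lef1 and Id2, which had the largest differences between wild-type Th17 and Th1 cells among the members, and Id3, the paralog of Id2. Methylation was not measured on these arrays. Each run is the 250 bases before the first start listed for the gene in a table of RefSeq promoters (GRCm38.p6), written 5′ to 3′ on the gene's strand with every CpG in capitals.
Slamf6: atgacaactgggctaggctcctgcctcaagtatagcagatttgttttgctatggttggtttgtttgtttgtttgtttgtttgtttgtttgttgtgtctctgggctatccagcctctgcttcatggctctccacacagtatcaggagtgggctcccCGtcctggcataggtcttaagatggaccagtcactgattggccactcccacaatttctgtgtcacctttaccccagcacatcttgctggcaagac
Lef1: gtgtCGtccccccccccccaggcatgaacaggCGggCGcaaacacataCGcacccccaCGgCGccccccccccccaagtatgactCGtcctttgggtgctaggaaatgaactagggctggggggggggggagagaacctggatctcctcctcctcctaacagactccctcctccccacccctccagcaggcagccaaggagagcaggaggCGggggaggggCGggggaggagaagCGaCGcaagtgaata
Id2: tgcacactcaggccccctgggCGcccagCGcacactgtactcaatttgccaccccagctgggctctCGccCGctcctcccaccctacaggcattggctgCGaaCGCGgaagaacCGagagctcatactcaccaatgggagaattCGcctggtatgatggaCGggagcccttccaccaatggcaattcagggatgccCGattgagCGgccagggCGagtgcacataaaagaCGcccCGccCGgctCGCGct
Id3: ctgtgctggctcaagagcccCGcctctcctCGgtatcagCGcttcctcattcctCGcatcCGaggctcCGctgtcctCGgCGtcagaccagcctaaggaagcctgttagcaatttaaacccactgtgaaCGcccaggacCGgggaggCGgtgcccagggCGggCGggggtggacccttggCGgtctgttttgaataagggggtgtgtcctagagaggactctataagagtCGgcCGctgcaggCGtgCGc
The Slamf6 stretch lies at chr1:171917212-171917461 on the plus strand, so that its last 4 bases fall inside the gene as annotated, that of Lef1 at chr3:131110047-131110296 on the plus strand, that of Id2 at chr12:25096093-25096342 on the minus strand and that of Id3 at chr4:136143572-136143821 on the plus strand. Slamf6 held 1 CpG, Lef1 11, and Id2 and Id3 18 each, against a median of 6.0 over 27025 promoters of the same length. Fewer CpG than in Slamf6 were found in 8.26% of those promoters, and fewer than in Id2 or Id3 in 78.4%. A start was listed for 8 of the 9 members, all but S1pr1. Of the other members, Klf2 held 29 CpG, Foxo1 20, Bach2 7 and Satb1 5. The only start listed for Bach2 is an internal one, and its stretch, at chr4:32417185-32417434, lies within the gene. Satb1 has 5 listed starts, whose 250 bases held between 3 and 41 CpG, and Lef1 has 4, with between 5 and 14. The shares of all promoters given next count only the first start listed per gene, while the members were searched at every listed start. Searched on both strands, the E-box CAGNTG, a motif that E proteins bind, was present before the first listed start of Id2 and Slamf6, and in 44.5% of all promoters. It was also present before the third start of Lef1 and of Satb1. The letters CTTTGA, bound by Lef1 and Tcf7, were present in the internal stretch of Bach2, before the fourth start of Lef1 and in 14.0% of all promoters. TGTTTAC, bound by Foxo factors, was present in 3.09% of all promoters and before none of the starts listed for these 8 genes.

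Values are log2 units per probeset, and a difference of 1 is a doubling. Array medians lay between 6.47 and 6.53. Across genes, arrays of the same group correlated at 0.990 to 0.994 and Th17 with Th1 arrays at 0.977 to 0.981. All 7 measured markers of CD4 T cells lay above the array median on every array. The Th17 markers Il17a, Il17f, Il23r, Ccr6, Rora and Ccl20 (6 of 6) were called higher in Th17 than in Th1 cells in both genotypes. Tet2 itself read 8.37 and 8.42 in Tet2-/- Th17, 8.53 and 8.51 in wild-type Th17, 8.12 and 7.97 in Tet2-/- Th1, and 8.14 and 8.03 in wild-type Th1 cells. Where its probeset lies relative to the deleted part is not known, so it does not check the genotype. The Th17 arrays stand apart from each other in sex-linked transcripts. Xist read 8.62 (replicate 1) and 11.27 (replicate 2) in Tet2-/- Th17 cells and 5.20 (replicate 1) and 10.09 (replicate 2) in wild-type Th17 cells, while all Th1 arrays lay between 4.83 and 5.11, and the mean of 3 Y-linked genes was lowest (4.85) in Tet2-/- Th17 replicate 2. Wild-type Th17 replicate 1 and Tet2-/- Th17 replicate 2 are the extremes, and results that move without them are given with and without them. In the Th17 arrays that remain, Xist still read 8.62 and 10.09, above all Th1 arrays. Leaving the extremes out therefore does not even out sex-linked transcripts between Th17 and Th1 cells. It does not test their part in the Th17 to Th1 differences.

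The first comparison asks how Th17 and Th1 cells differ in these regulators. All 9 members read higher in Th17 than in Th1 cells, in both genotypes, with a median log2 difference of 0.67 in Tet2-/- and 0.86 in wild-type cells, where the median over all genes was -0.01 in each. A linear model with 1 mean per group, fitted with limma to all genes and arrays, called a gene at a Benjamini-Hochberg adjusted p under 0.05. It called 6 of 9 members in Tet2-/- cells, all higher in Th17, against 7.14% of all genes called higher and 10.4% called in either direction. In wild-type cells it called 7 of 9, all higher, against 5.3% of all genes called higher and 8.47% in either direction. Without the 2 Th17 arrays at the extremes of the sex-linked transcripts, 6 members were called in each genotype. Both Th17 arrays lay above both Th1 arrays for 9 of 9 members in Tet2-/- cells (28.8% of all genes) and for 8 of 9 in wild-type cells (25.2%). The comparisons share arrays, so the values of both genotypes are given side by side. In bulk RNA, fewer cells of a type and less RNA per cell cannot be told apart.

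**Figure D1:**
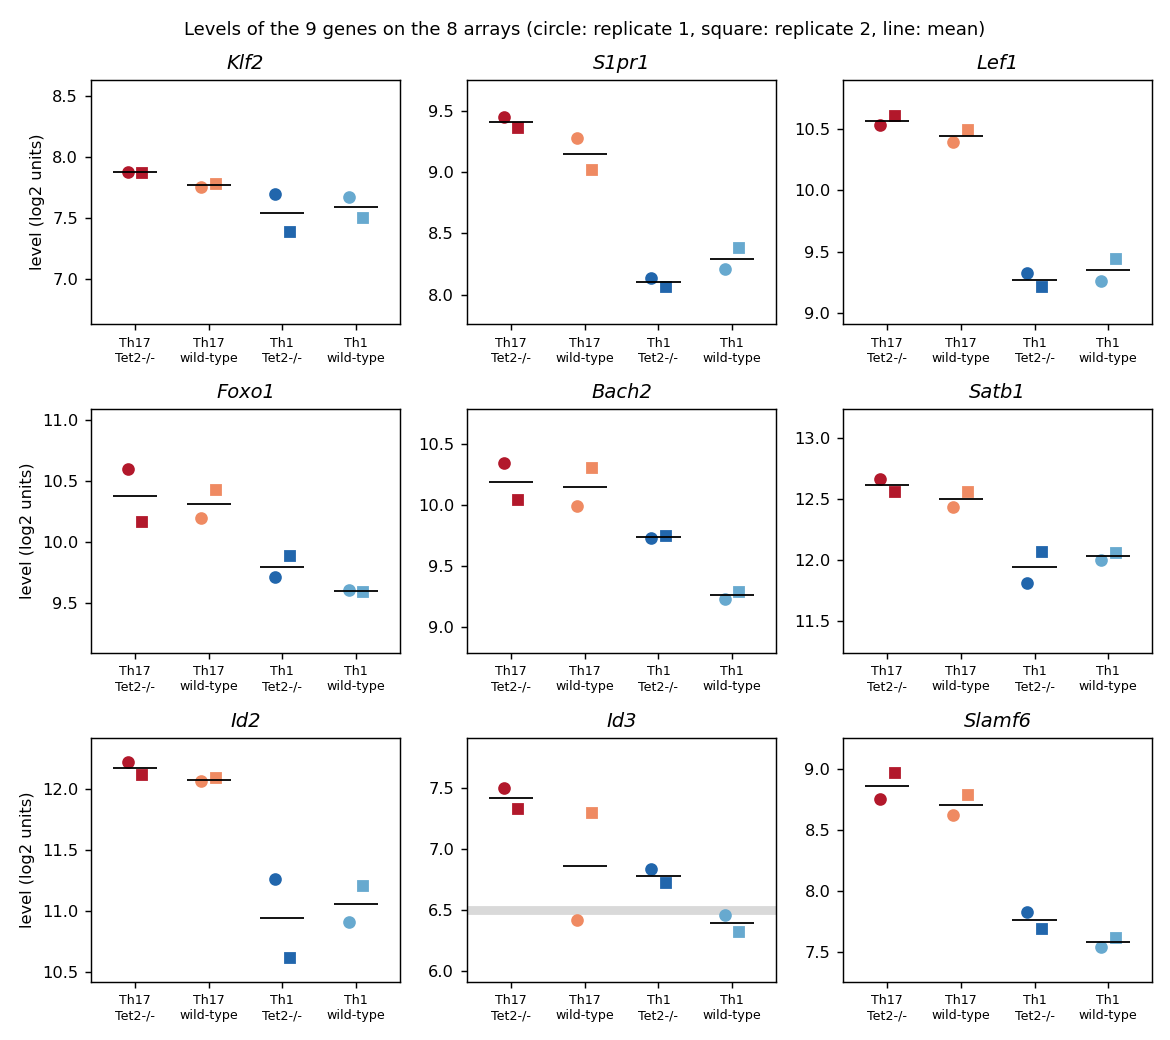
Level in log2 units of each of the 9 genes on the 8 arrays, by group, with circles for replicate 1, squares for replicate 2 and a line at the mean of the 2 arrays; every panel spans 2 log2 units, and the grey band in the Id3 panel is the range of array medians. Th17 arrays lie above Th1 arrays in every panel except for wild-type Th17 replicate 1 of Id3, at 6.42.

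Foxo1, Klf2 and S1pr1 form the egress axis. Foxo1 read 10.59 and 10.16 log2 units in Tet2-/- Th17 and 10.20 and 10.42 in wild-type Th17 cells, against 9.71 and 9.88 in Tet2-/- Th1 and 9.60 and 9.59 in wild-type Th1 cells. All 4 Th17 arrays lay above all 4 Th1 arrays. Foxo1 was called in Tet2-/- cells, higher in Th17 (log2 0.58, SE 0.155, adjusted p = 0.0317), and in wild-type cells, 1.64-fold higher (log2 0.71, SE 0.155, adjusted p = 0.0138). It no longer passed in Tet2-/- cells without Tet2-/- Th17 replicate 1 (0.36, adjusted p = 0.331) or without either Tet2-/- Th1 array (adjusted p = 0.193 and 0.0662), and in wild-type cells without Th17 replicate 2 (0.60, adjusted p = 0.133) or Th1 replicate 1 (adjusted p = 0.0539). The call also ended with all probesets tested (adjusted p = 0.121 in Tet2-/- and 0.0877 in wild-type cells) and, in Tet2-/- cells, after quantile normalization (adjusted p = 0.0571) and with a replicate block (adjusted p = 0.0526).

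Klf2 differed least. It read 7.88 and 7.87 in Tet2-/- Th17 and 7.76 and 7.78 in wild-type Th17 cells, against 7.69 and 7.38 in Tet2-/- Th1 and 7.67 and 7.50 in wild-type Th1 cells. The Th17 arrays lay above the Th1 arrays, but by as little as 0.06 log2 units between the nearest. Its difference was 0.34 in Tet2-/- cells (SE 0.129, interval 0.06 to 0.62, adjusted p = 0.124) and 0.18 in wild-type cells (SE 0.129, interval -0.10 to 0.46, adjusted p = 0.429), and neither passed.

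S1pr1, the gene downstream of Klf2, read 9.45 and 9.37 in Tet2-/- Th17 and 9.28 and 9.02 in wild-type Th17 cells, against 8.14 and 8.06 in Tet2-/- Th1 and 8.21 and 8.38 in wild-type Th1 cells. The 4 groups did not overlap, and fell in the order Tet2-/- Th17, wild-type Th17, wild-type Th1, Tet2-/- Th1. S1pr1 was 2.48-fold higher in Th17 than in Th1 cells of Tet2-/- genotype (log2 1.31, SE 0.129, adjusted p = 4.68e-05) and 1.81-fold higher in wild-type cells (log2 0.86, SE 0.129, adjusted p = 0.00138). Both calls held in 18 of 18 alternatives.

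Among the chromatin and DNA-binding factors, Lef1 differed most. It read 10.53 and 10.61 in Tet2-/- Th17 and 10.40 and 10.49 in wild-type Th17 cells, against 9.33 and 9.21 in Tet2-/- Th1 and 9.26 and 9.44 in wild-type Th1 cells. Each Th17 array lay at least 0.96 log2 units above each Th1 array. Lef1 was 2.47-fold higher in Tet2-/- Th17 cells than in Tet2-/- Th1 cells (log2 1.31, SE 0.125, adjusted p = 3.86e-05) and 2.14-fold higher in wild-type Th17 cells than in wild-type Th1 cells (log2 1.10, SE 0.125, adjusted p = 0.000154), in 18 of 18 alternatives each. Only 189 genes, Lef1 included, differed as much or more in wild-type cells.

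Bach2 read 10.34 and 10.04 in Tet2-/- Th17 and 9.99 and 10.30 in wild-type Th17 cells, against 9.73 and 9.74 in Tet2-/- Th1 and 9.23 and 9.28 in wild-type Th1 cells. The Th17 groups overlapped each other, while Tet2-/- Th1 arrays lay between them and the wild-type Th1 arrays. Bach2 was called higher in wild-type Th17 cells (log2 0.89, SE 0.144, 1.85-fold, adjusted p = 0.00228) in 18 of 18 alternatives. In Tet2-/- cells the difference was 0.45 (SE 0.144, adjusted p = 0.0661), and it passed in 3 of 18 alternatives.

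Satb1 read 12.67 and 12.56 in Tet2-/- Th17 and 12.44 and 12.56 in wild-type Th17 cells, against 11.82 and 12.07 in Tet2-/- Th1 and 12.00 and 12.06 in wild-type Th1 cells. The Th17 and Th1 arrays did not overlap. It was 1.59-fold higher in Tet2-/- Th17 cells (log2 0.67, SE 0.129, adjusted p = 0.00578), a call that ended without Tet2-/- Th1 replicate 1 (0.54, adjusted p = 0.0640) or Tet2-/- Th17 replicate 1 (0.61, adjusted p = 0.0904), and without both Th17 arrays at the sex-linked extremes (0.72, adjusted p = 0.0770). In wild-type cells it was 1.38-fold higher (log2 0.47, SE 0.129, adjusted p = 0.0437), and this call was lost in 12 of 18 alternatives (adjusted p up to 0.272).

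Id2 and Id3 are the E protein inhibitors. Id2 read 12.22 and 12.11 in Tet2-/- Th17 and 12.06 and 12.08 in wild-type Th17 cells, against 11.26 and 10.61 in Tet2-/- Th1 and 10.91 and 11.20 in wild-type Th1 cells. The Th17 arrays lay within 0.16 log2 units of each other, while the Th1 arrays were spread over 0.64. Id2 was 2.35-fold higher in Tet2-/- Th17 cells (log2 1.23, SE 0.183, adjusted p = 0.00105) and 2.03-fold higher in wild-type Th17 cells (log2 1.02, SE 0.183, adjusted p = 0.00461). The wild-type call ended without the 2 Th17 arrays at the extremes of the sex-linked transcripts (1.03, adjusted p = 0.0615) and with all probesets tested (adjusted p = 0.0669).

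Id3 read 7.50 and 7.33 in Tet2-/- Th17 and 6.42 and 7.30 in wild-type Th17 cells, against 6.84 and 6.72 in Tet2-/- Th1 and 6.46 and 6.32 in wild-type Th1 cells. Wild-type Th17 replicate 1 stood with the wild-type Th1 arrays, and these 3 arrays lay under their array medians, so Id3 is not shown to be expressed in them. Its difference between Th17 and Th1 cells was 0.64 in Tet2-/- cells (SE 0.210, adjusted p = 0.0764) and 0.47 in wild-type cells (SE 0.210, adjusted p = 0.196). Without wild-type Th17 replicate 1 the wild-type difference was 0.90 (adjusted p = 0.00505), and without replicate 2 it was 0.03. That array was also the Th17 array with the lowest Xist (5.20), whose part in the Id3 value was not tested.

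Slamf6 read 8.75 and 8.97 in Tet2-/- Th17 and 8.62 and 8.78 in wild-type Th17 cells, against 7.83 and 7.69 in Tet2-/- Th1 and 7.54 and 7.62 in wild-type Th1 cells. The gap between Th17 and Th1 arrays exceeded the spread within either. It was 2.15-fold higher in Tet2-/- Th17 cells (log2 1.10, SE 0.126, adjusted p = 0.000149) and 2.18-fold higher in wild-type Th17 cells (log2 1.12, SE 0.126, adjusted p = 0.000145), in 18 of 18 alternatives each.

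**Figure D2:**
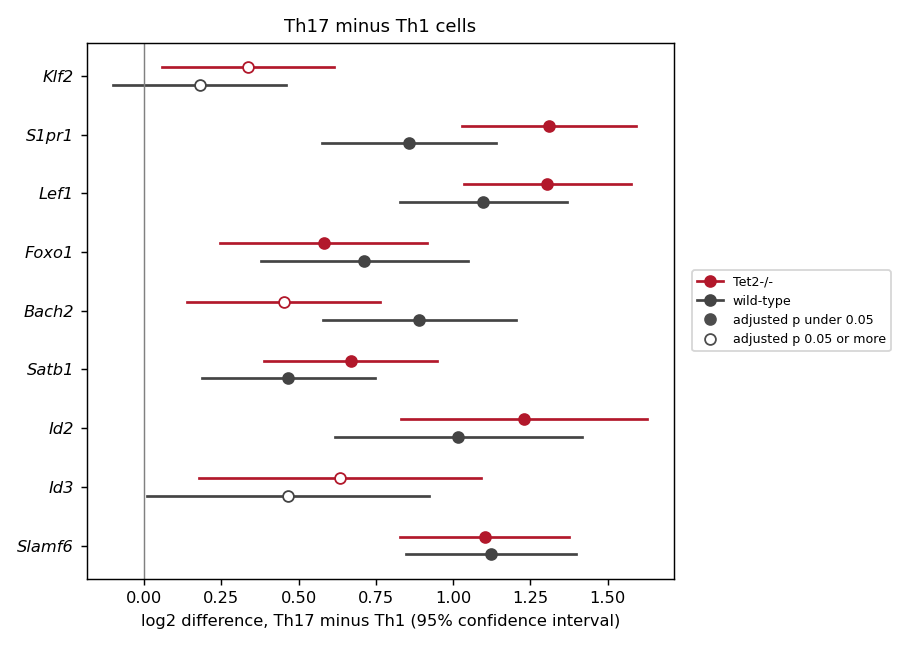
Log2 difference of Th17 minus Th1 cells for each gene in Tet2-/- (red) and wild-type (grey) cells, with 95% confidence intervals from the limma fit; filled points passed the adjusted p of 0.05. All 18 differences are above 0, from 0.18 for Klf2 in wild-type cells to 1.31 for S1pr1 in Tet2-/- cells.

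Other genes of the naive program differed in both directions. These lists were drawn up with earlier results of these data known. Over all genes, 7.14% were called higher and 3.29% lower in Tet2-/- Th17 than in Tet2-/- Th1 cells. In wild-type cells the shares were 5.3% and 3.17%. Of 24 measured naive and central memory genes other than the members, 10 were called higher and 3 lower in Tet2-/- Th17 than in Tet2-/- Th1 cells (median 0.32), and 7 higher and 3 lower in the wild-type comparison (median 0.28). Txk, a Tec-family kinase of T cells, differed by 1.91 in Tet2-/- and 1.93 in wild-type cells (adjusted p = 7.19e-06 and 6.63e-06). Ltb, which encodes lymphotoxin-β, differed by 1.03 and 1.27, and Igfbp4, an insulin-like growth factor binding protein, by 1.00 and 1.67 (adjusted p = 9.05e-05 for Ltb and 8.76e-05 for Igfbp4 in wild-type cells). Btg2, an inhibitor of proliferation, differed by 0.69 and 0.51. Against them, Dapl1 was lower in Th17 cells, at -2.90 in Tet2-/- and -2.25 in wild-type cells (adjusted p = 9.39e-06 and 8.15e-05). Ccr7, the homing receptor for lymph nodes, was also lower (-0.65 and -0.52, adjusted p = 0.00642 and 0.0268), as was Actn1 (-0.56 and -0.66), which encodes an α-actinin. Il7r, the IL-7 receptor chain of resting T cells, was called only in Tet2-/- cells (0.57, adjusted p = 0.0172, against 0.10, adjusted p = 0.707, in wild-type cells), and the difference between these did not pass (0.47, adjusted p = 0.999). Tcf7 has no probeset with a single symbol and was not analysed here. In Tet2-/- cells the counts for this list dropped to 5 higher and 2 lower without Th17 replicate 1, to 6 and 1 without Th17 replicate 2, and to 6 and 3 without Th1 replicate 1. In wild-type cells the counts also dropped without Th17 replicate 2, where the median was 0.232. With any 1 array left out, the wild-type median was lowest, at 0.204, without Th1 replicate 2. Without both Th17 arrays at the extremes of the sex-linked transcripts, 6 higher and 1 lower were called in Tet2-/- and 5 and 1 in wild-type cells.

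Most of the called Foxo targets were higher in Th17 cells. Of 17 measured, apart from Klf2 and S1pr1, 9 were called higher and 3 lower in Tet2-/- cells (median 0.57). In wild-type cells 8 were called higher and 2 lower (median 0.34). The shares over all genes were 7.14% higher and 3.29% lower in Tet2-/- cells, and 5.3% and 3.17% in wild-type cells. The cell cycle inhibitor Cdkn1b differed by 1.43 in Tet2-/- and 1.10 in wild-type cells, and Ccng2, a cyclin of resting cells, by 1.56 and 0.94. Sesn1, a stress-induced sestrin, differed by 1.06 and 1.25. Bcl6, a transcriptional repressor that follicular helper cells need, differed by 1.88 and 1.18, and Pik3ip1, an inhibitor of PI3 kinase, by 0.99 and 0.61. Rbl2, a retinoblastoma relative that restrains the cell cycle, differed by 0.82 and 1.44. Irs2, an adaptor of insulin signalling, was lower (-0.74 and -0.62), and Ccr7 is on this list too. Bcl2l11 averaged 8.16 in Tet2-/- Th17 and 8.62 in Tet2-/- Th1 cells. In wild-type cells it differed by -0.36 and did not pass (adjusted p = 0.113). Counts of genes called higher stayed between 8 and 9 in Tet2-/- and between 6 and 8 in wild-type cells when any 1 array was left out, and the wild-type median was 0.185 without Th1 replicate 1. Those called lower dropped to 1 in Tet2-/- cells without either Th17 array of that genotype, and in wild-type cells to 0 without Th17 replicate 2 and to 1 without Th17 replicate 1, without either Tet2-/- Th17 array or without Th1 replicate 1. Without both Th17 arrays at the sex-linked extremes, 8 higher and 0 lower were called in Tet2-/- and 7 and 1 in wild-type cells.

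Most of the called effector genes were lower in Th17 cells. Of 22 measured, 2 were called higher and 11 lower in Tet2-/- Th17 cells (median -0.42). In wild-type Th17 cells 2 were called higher and 10 lower (median -0.33). The shares over all genes were 7.14% higher and 3.29% lower in Tet2-/- cells, and 5.3% and 3.17% in wild-type cells. Tbx21 and Il12rb2 of this list are also Th1 markers and Rora is also a Th17 marker, so the list in part restates the identity of the cells. Gzmb, which encodes granzyme B, differed by -4.66 in Tet2-/- and -4.84 in wild-type cells, and Tbx21, which encodes T-bet, by -3.30 and -2.56. Maf and Rora, factors that act in Th17 cells, were higher, Maf by 3.52 and 3.65 and Rora by 2.42 and 2.13. Without both Th17 arrays at the sex-linked extremes, 2 higher and 9 lower were called in Tet2-/- and 2 and 8 in wild-type cells.

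**Figure D3:**
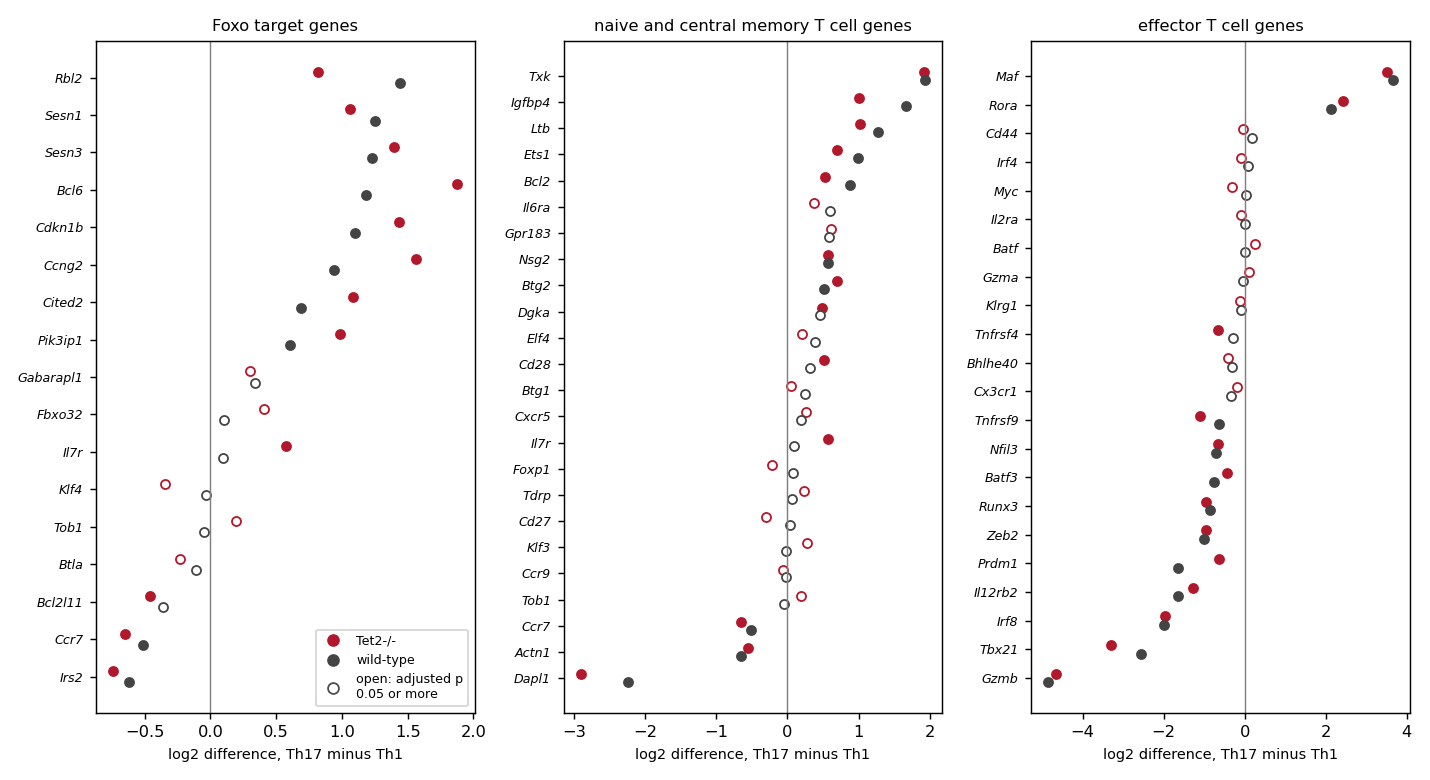
Log2 difference of Th17 minus Th1 cells for each measured gene of 3 lists, Foxo targets, naive and central memory genes and effector genes, in Tet2-/- (red) and wild-type (grey) cells; open points did not pass the adjusted p of 0.05. Dapl1 (-2.90 and -2.25), Ccr7, Actn1, Irs2 and Bcl2l11 are among the genes on the side opposite to most of their lists.

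Relatives of the members were called in both directions, where 10.4% of all genes were called in Tet2-/- and 8.47% in wild-type cells. Of 16 other Klf genes, 2 were called higher and 2 lower in Tet2-/- Th17 cells, and 1 of each in wild-type Th17 cells. Klf7 differed by 0.93 in Tet2-/- cells and Klf10 by 0.47, whereas Klf6 differed by -0.94 and Klf16 by -0.53. In wild-type cells Klf10 differed by 0.52 and Klf6 by -0.59. Among 12 genes of the sphingosine 1-phosphate and egress list, Cd69, whose product removes S1pr1 from the surface, was called higher in Tet2-/- (0.89, adjusted p = 0.00461) and wild-type Th17 cells (1.16, adjusted p = 0.000925). The receptor S1pr4 (0.51, adjusted p = 0.0311) and the phosphatase Sgpp1 (0.67, adjusted p = 0.0186) passed in Tet2-/- but not in wild-type cells (0.27 and 0.54), and neither difference between genotypes passed (adjusted p = 0.999), and the kinase Sphk1 was lower in wild-type Th17 cells (-0.40, adjusted p = 0.0394). Of 9 SLAM family genes, Slamf7 was lower in Th17 cells (-1.03 in Tet2-/- and -0.91 in wild-type cells), opposite to Slamf6, and Cd48 differed by 0.51 in Tet2-/- cells (adjusted p = 0.0242). Of the 7 other Id and E protein genes, 0 were called in either genotype, the smallest adjusted p being 0.0699 for Tcf12, an E protein, in Tet2-/- cells. None of Foxo3, Foxo4 and Foxo6 was called, with adjusted p of 0.490 or more. Of 8 Bach1, small Maf and related genes 0 were called, and of 12 Lef, Tcf and Wnt genes 1 in each genotype. Ctnnb1 (β-catenin) passed in Tet2-/- cells (0.42, adjusted p = 0.0413) but not in wild-type cells (0.31, adjusted p = 0.13). The corepressor Tle1 passed in wild-type cells (0.75, adjusted p = 0.000922) but not in Tet2-/- cells. There it averaged 5.99 in Th17 and 5.69 in Th1 cells. For neither gene did the difference between genotypes pass.

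Markers of other cells moved in part with this comparison. Of 13 cell cycle genes, 9 read higher and 4 lower in Tet2-/- Th17 cells and 13 of 13 read lower in wild-type Th17 cells, with 0 called in either. Of 6 NK cell markers, 2 that Th1 cells also express, Nkg7 and Eomes, were called lower in Th17 cells of both genotypes, while Ncr1 and Klrb1c averaged between 4.02 and 4.79 in every group. Of 7 regulatory T cell markers, Ctla4 and Gpr83 were called higher in both genotypes. Of the same 7, 2 read higher and 5 lower in Tet2-/- Th17 cells, and 7 read higher in wild-type Th17 cells. Foxp3 averaged between 6.51 and 6.65 in every group and was not called. Of 11 stromal markers, Lum and Pecam1 were higher and Sparc lower in both, with Dcn higher in Tet2-/- cells. The mean level of the B cell list lay between 5.52 and 5.74 and that of the myeloid list between 5.64 and 5.93 over the 8 arrays, with 0 of their 14 genes called. The part of these genes in the members' differences was not tested.

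Tet2-/- Th17 cells were next compared with wild-type Th17 cells. No member passed the test, as 0% of all genes did: limma called 0 of 19938 genes, with 848 (4.25%) at an unadjusted p under 0.05, among them 1 member, Id3. All 9 members read higher in Tet2-/- than in wild-type Th17 cells on average, with differences of 0.04 to 0.56 and a median of 0.11, where the median over all genes was 0.02 and 56.6% of all genes read higher. The direction turned for Foxo1 and Bach2 without Tet2-/- replicate 1 (-0.15 and -0.11) or wild-type replicate 1 (-0.045 and -0.11), and for Slamf6 without wild-type replicate 1 and Tet2-/- replicate 2 together (-0.030). The arrays of the 2 genotypes did not overlap for 6 members, against 33.2% of all genes. The member furthest from 0 was Id3, at 0.56 (SE 0.210, interval 0.10 to 1.01, unadjusted p = 0.0207, adjusted p = 1.00), with 7.50 and 7.33 in Tet2-/- and 6.42 and 7.30 in wild-type cells. This value rests on wild-type replicate 1: without it the difference was 0.12, and without replicate 2 it was 1.00. S1pr1 differed by 0.26 (interval -0.02 to 0.54), Slamf6 by 0.16, Lef1 by 0.12, Satb1 by 0.11, Klf2 by 0.11, Id2 by 0.10, Foxo1 by 0.07 and Bach2 by 0.04. The intervals of these 8 all include 0 and reach no higher than 0.54, so larger differences lie outside them.

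The same loss in Th1 cells gave another set of values. Limma called 0 members and 1 of 19938 genes (0.00502%), with 1145 (5.74%) at an unadjusted p under 0.05, among them 1 member, Bach2. The called gene is Ifng, the signature cytokine of Th1 cells, at -1.42. Of the members, 4 read higher and 5 lower in Tet2-/- Th1 cells, with a median of -0.05. The arrays did not overlap for 5 members, against 32.7% of all genes. Bach2 was furthest from 0, with 9.73 and 9.74 in Tet2-/- and 9.23 and 9.28 in wild-type Th1 cells. The gap between the genotypes was larger than the spread within either, and the difference was 0.48 (SE 0.144, interval 0.17 to 0.79, 1.39-fold, unadjusted p = 0.00581), but it did not pass over all genes (adjusted p = 0.824). It lay between 0.45 and 0.50 in all 18 alternatives and passed in none of them. Only 136 genes, Bach2 included, differed as much or more. Id3 differed by 0.39 (SE 0.210, interval -0.07 to 0.84, adjusted p = 0.854), with 6.84 and 6.72 in Tet2-/- and 6.46 and 6.32 in wild-type cells, where both lay under the array medians. Foxo1 differed by 0.20, Slamf6 by 0.18, Klf2 by -0.05, Lef1 by -0.08, Satb1 by -0.09, Id2 by -0.12 and S1pr1 by -0.19, all with intervals that include 0. Prdm1, an effector gene that Bach2 is known to repress, read 6.74 on average in Tet2-/- and 7.51 in wild-type Th1 cells (-0.77, adjusted p = 0.176). In Th17 cells it averaged 6.10 in Tet2-/- and 5.86 in wild-type cells. Of the 22 effector genes measured, 11 read higher and 11 lower in Tet2-/- than in wild-type Th1 cells, with 0 called (median 0.001). A link between the levels of Bach2 and Prdm1 was not tested.

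**Figure D4:**
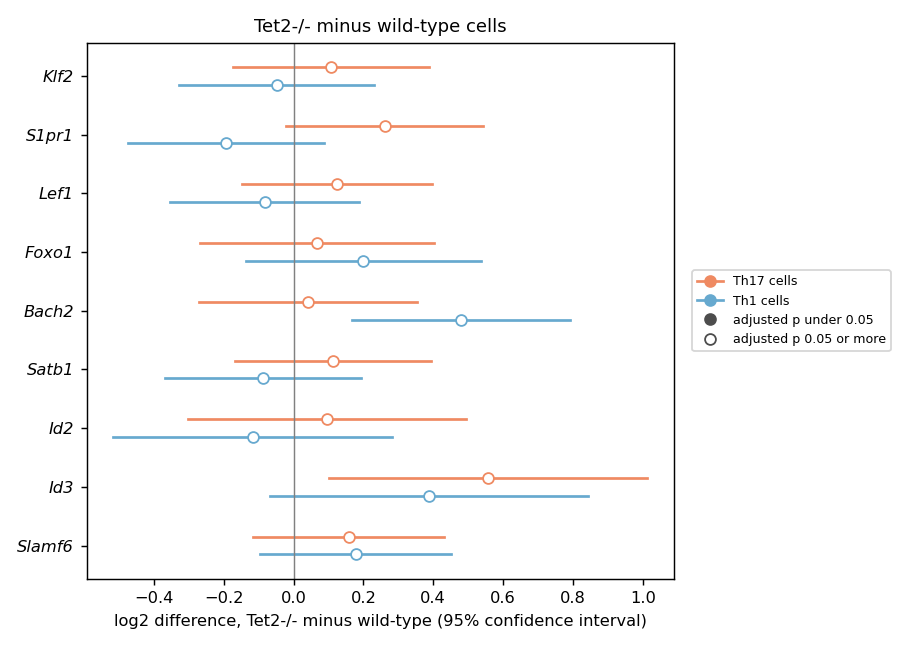
Log2 difference of Tet2-/- minus wild-type cells for each gene in Th17 (orange) and Th1 (blue) cells, with 95% confidence intervals from the limma fit; all points are open, since none passed the adjusted p of 0.05. The intervals of Bach2 in Th1 cells (0.17 to 0.79) and Id3 in Th17 cells (0.10 to 1.01) lie above 0.

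The wider naive list gave no calls on genotype either. Of its 24 genes, 16 read higher in Tet2-/- Th17 than in wild-type Th17 cells (median 0.08) and 19 read higher in Tet2-/- Th1 than in wild-type Th1 cells (median 0.16), with 0 called in each. Klf3, a Klf relative, differed by 0.47 in Th17 cells (adjusted p = 0.681). Igfbp4 differed by 0.75 in Th1 cells and Il7r by -0.50 (adjusted p = 0.824 for both). Ccr7 differed by 0.09 in Th17 and 0.23 in Th1 cells. Among Foxo targets, with 0 of 17 called, Bcl6 differed by 0.75 (adjusted p = 0.366) and Rbl2 by -0.75 (adjusted p = 0.462) in Th17 cells. Cell cycle genes, of which 12 of 13 read higher in Tet2-/- Th17 and 0 of 13 in Tet2-/- Th1 cells than in the matching wild-type cells, moved beside these values, and their part was not tested.

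Whether the loss of Tet2 acted differently in Th17 and Th1 cells was tested as the difference of the 2 genotype differences, which is the same quantity as the change of the Th17 to Th1 difference between genotypes. Limma called 0 of 19938 genes (0%), with 908 (4.55%) at an unadjusted p under 0.05, and 0 members, S1pr1 being the 1 member under that unadjusted p. For S1pr1 the difference was 0.45 (SE 0.183, interval 0.06 to 0.85, unadjusted p = 0.0286, adjusted p = 0.999): both Tet2-/- arrays lay above both wild-type arrays in Th17 cells and below them in Th1 cells. For Bach2 it was -0.44 (SE 0.204, interval -0.88 to 0.0044, adjusted p = 0.999). The other 7 ranged from -0.13 for Foxo1 to 0.21 for Id2, and their intervals include 0.

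Genes whose centred profile over the 8 arrays was nearest to a member were looked up for the 7 members that ranged over at least 1 log2 unit. Likeness was the root mean square difference in log2 units after each gene was centred on its own mean, and it describes these arrays only. S1pr1 was nearest to Ube2h (0.0904), Txnip (0.0955) and Usp3 (0.108), where the median gene stood at 0.577. Txnip, which restrains glucose uptake, read 10.89 and 10.74 in Tet2-/- Th17 and 10.53 and 10.44 in wild-type Th17 cells, against 9.46 and 9.44 in Tet2-/- Th1 and 9.39 and 9.56 in wild-type Th1 cells. Lef1 was nearest to Tpbg (0.0807), Usp3 (0.0896) and Arhgap26 (0.106). Slamf6 was nearest to Arrdc3 (0.0988), Podnl1 (0.101) and Arhgap26 (0.103), so that it shares a near gene with Lef1. Foxo1 was nearest to Inpp5d (0.0777), the inositol phosphatase SHIP, then to Nr4a1 (0.0823) and Gsto1 (0.0840). Bach2 was nearest to Dennd1c (0.0752), Lgmn (0.0807) and Rara (0.0853), the retinoic acid receptor. Id2 was nearest to Smap2 (0.118), Ehd3 (0.120) and Prkacb (0.125). Id3 had the least close neighbours, Tnfrsf14 (0.149), Pop5 (0.153) and Selplg (0.155).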

How the data were processed

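RNA was labelled with biotin and hybridised to Affymetrix arrays, 1 array per culture. The authors deposited 1 log2 value per probeset and array, and the submitters' processing notes name Partek and RMA. Versions, filters and log base are not given in the sources used here; base 2 is inferred from values that span 2.71 to 14.1. Scanner intensities and detection calls were not used here, and RMA shrinks differences of dim probesets.

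Of 35556 probesets, 21789 had 1 gene symbol, 1621 several and 12146 none listed. Where several such probesets shared a gene (999 genes), the brightest on average was kept, which left 19938 genes, none filtered on level. Entrez IDs of all 9 members matched the RefSeq table for GRCm38.p6. The fit used limma 3.58.1 in R 4.3.3 (lmFit, eBayes with an intensity trend, 4 residual and 8.44 prior degrees of freedom), with two-sided tests adjusted over all 19938 genes by Benjamini-Hochberg and confidence intervals of 95%. It was tested on simulated data. The number of arrays limits the precision. Of each gene list, up to 4 called genes with the smallest p were named, or 2 where none was called, with Ccr7 and Il7r always; Actn1, Irs2, Prdm1 and values of other genes in a comparison outside this rule were chosen after their values were seen. Members and lists were chosen with earlier results of these data known. Alternatives were the mean of probesets, all probesets, quantile normalization, no dim genes, no trend, only the arrays compared, the Y-linked level as a covariate (Eif2s3y, Kdm5d and Uty, since Ddx3y has no single-symbol probeset), array weights, a replicate block and leaving out each array, and, chosen after seeing the data, leaving out 2 Th17 arrays together.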

Additional observations from a re-analysis of the deposited data

How the results depend on the processing

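Over 18 alternatives, the 18 member differences between Th17 and Th1 cells gave 324 values, of which 0 changed sign, 26 lost the call and 10 gained it. The 477 values for Tet2 loss and for the difference of its effects gave 0 calls. With all probesets tested, 4 members and 622 genes were called between wild-type Th17 and Th1 cells, 1064 genes between Tet2-/- cells, and 0 for Tet2 loss in Th1 cells, where more features are adjusted for. For Tet2 loss in Th1 cells 0 genes were called with only the 4 arrays compared, and in Th17 cells 2 with array weights. Without wild-type Th17 replicate 1 and Tet2-/- Th17 replicate 2 together, 975 genes were called between Tet2-/- Th17 and Th1 cells, 808 between wild-type cells and 0 for Tet2 loss in Th1 cells, with fewer samples; Slamf6 differed by -0.030 for Tet2 loss in Th17 cells and Id3 by -0.18 in the difference of effects. With the Y-linked mean in the model, Foxo1 was at 0.0023 in that difference. With dim genes left out, 74.2% of the calls between wild-type cells were higher in Th17, against 62.5%.

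Leaving out each array in turn gave 815 to 2383 genes between Tet2-/- Th17 and Th1 cells and 667 to 1560 between wild-type cells, 0 to 2 for Tet2 loss in Th1, 0 to 9 in Th17 and 0 to 4 for the difference. For Tet2 loss in Th1 cells Klf2 then ranged from -0.20 to 0.11, Lef1 from -0.18 to 0.011, Satb1 from -0.21 to 0.038 and Id2 from -0.44 to 0.20. In Th17 cells Foxo1 ranged from -0.15 to 0.29 and Bach2 from -0.11 to 0.20. In the difference of effects Foxo1 ranged from -0.35 to 0.086, Id2 from -0.11 to 0.54, Id3 from -0.27 to 0.61 and Slamf6 from -0.13 to 0.087. The cause was not tested. The replicate numbers share no stated mouse or day, so the main fit did not pair the samples by them. Same-numbered arrays correlated in their deviations at -0.189 to 0.0534, which cannot tell whether they share a mouse or a day. With the replicate block, 1810 genes and 5 members were called between Tet2-/- cells and 1411 and 6 between wild-type cells. Without detection calls, a dim level such as that of Id3 has no known floor.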
